A study of Mus musculus with 14 samples.

Results

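Glutathione transferases were followed through 10 genes of the family, chosen by their gene symbol on the array's platform annotation: Gstm1, Gstm2, Gstm3, Gsta4, Gsta3, Gstp1, Gstt1, Gsto1, Mgst1 and Mgst2. All 10 were found among 24675 probe sets with a gene symbol, each with 1 probe set, and all 10 were among the 15873 genes tested. RNA of sorted mouse crypt cells had been hybridised to 14 Affymetrix Mouse Gene 2.0 ST arrays, 1 per cell sample. Every mouse carried the Lgr5-EGFP-IRES-CreERT2 allele, in which the Lgr5 promoter drives both EGFP and a Cre that works only with tamoxifen, and every mouse received tamoxifen on 5 days and was killed 1 month later. The Atg7KO mice carried in addition the Atg7(fl/fl) alleles, so Atg7, an enzyme that autophagosomes need to form, can be lost only where the Lgr5 promoter was active and in the progeny of those cells. The mice called WT had the Lgr5 allele alone.

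Cells low in CD24 were sorted into a gate of high EGFP, which the submitters call intestinal stem cells, and a gate of low EGFP, which they call transit amplifying progenitors. The groups were Atg7KO-High (n = 3), WT-High (n = 3), Atg7KO-Low (n = 4) and WT-Low (n = 4). Each sample is called by its group and title number (WT-Low-411, for example). The labels speak of individual mice and give neither age nor strain background. They do not say that a title number stands for a mouse, so p-values measure the spread between these samples. In sorted populations, fewer cells of a type and less RNA per cell cannot be told apart.

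Glutathione transferases join the tripeptide glutathione to electrophilic compounds, such as drugs, food toxins and the aldehydes that form when membrane lipids oxidise, and so make them soluble and ready for export. The cytosolic enzymes fall into classes named by Greek letters, and Mgst1 and Mgst2 belong to a separate family of membrane proteins. Many of these genes are targets of the transcription factor NRF2, whose inhibitor KEAP1 can be bound by the autophagy receptor p62, encoded by Sqstm1. In the gut, detoxifying enzymes of this kind are characteristic of differentiated absorptive cells.

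The labels were checked first. Atg7 read 5.91 to 6.37 in Atg7KO-High and 6.76 to 6.83 in WT-High samples, and 5.65 to 6.06 in Atg7KO-Low against 6.46 to 7.49 in WT-Low samples, all as log2 values. The knockout samples lay below all wild-type samples of their gate, and the Atg7 differences of -0.65 (limma adjusted p = 0.208) and -1.02 (limma adjusted p = 0.166) missed the threshold. Lgr5 read 8.69 to 9.30 over the samples of the high gate and 4.65 to 6.25 over those of the low gate. Array medians lay between 4.30 and 4.49. The spread of all values on an array was narrowest for Atg7KO-High-356 (SD 1.90) and WT-Low-411 (SD 1.90), and was 1.90 to 1.98 over the Atg7KO-High and 1.99 to 2.06 over the WT-High arrays.

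The promoter windows of Gstm2 and Gstm3 are shown because these mu class genes lie side by side on chromosome 3 and behaved differently between the gates. Each window runs from 250 bases before to 50 bases after the gene's start in RefSeq's GRCm38.p6 table, is written along the gene's own strand, here the minus strand, and has the bases from the start onward in capitals. The Gstm2 window is chr3:107986371-107986670 and the Gstm3 window is chr3:107969125-107969424.
Gstm2: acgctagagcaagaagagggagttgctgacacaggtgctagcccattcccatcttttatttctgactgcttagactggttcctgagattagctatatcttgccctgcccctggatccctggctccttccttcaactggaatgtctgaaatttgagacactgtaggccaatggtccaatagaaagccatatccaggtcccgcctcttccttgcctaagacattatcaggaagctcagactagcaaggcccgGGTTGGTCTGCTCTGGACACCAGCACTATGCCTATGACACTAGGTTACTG
Gstm3: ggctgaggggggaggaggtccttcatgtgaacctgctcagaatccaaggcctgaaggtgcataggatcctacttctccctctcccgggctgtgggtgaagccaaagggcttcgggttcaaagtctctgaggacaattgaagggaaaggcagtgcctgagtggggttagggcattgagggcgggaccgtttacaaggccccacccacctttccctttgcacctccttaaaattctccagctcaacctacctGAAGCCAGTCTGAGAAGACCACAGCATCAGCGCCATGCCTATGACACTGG

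Aligned end to end, these windows shared 162 bases, 47.4% of the alignment's columns. The pairs of member windows other than those within the mu class had 39.9% to 51.9%, a range that includes the value for these neighbours. The longest run they share is ATGCCTATGACACT, 14 bases that begin at base 28 of the Gstm2 and base 35 of the Gstm3 transcript and were found in no other promoter window of the table. Windows end 50 bases after the start, so the transcript of a relative may hold this run beyond its window. A Gstm1 window, for example, stops at ATGCCTA, the beginning of the run. Transcripts of the mu class resemble each other in this way. How many probes of a set can also bind a relative's transcript is not known here, so mu class values are uncertain to that extent.

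The core of the antioxidant response element, the site of NRF2, was searched as TGACNNNGC on both strands in the 11 windows that the table holds for 9 of the members, all except Gsta4. It occurred in windows of Gsta3 and Mgst1, 2 of these 9 genes, and in 14.0% of the 27025 genes with a window. Both matches are printed with 10 bases on each side, the match in capitals. The first begins at base -121 relative to the start of Gsta3 on chromosome 1, within chr1:21240335-21240634. The second, on the opposite strand, begins at base -56 relative to the start of Mgst1 on chromosome 6, within chr6:138140277-138140576.
Gsta3: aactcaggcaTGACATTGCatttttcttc
Mgst1: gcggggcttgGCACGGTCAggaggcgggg

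The gates separated 2 of the 10 genes. In Atg7 knockout cells Gstm3 and Gsta4 fell in the high gate, by 2.00 and 1.84 on the log2 scale, that is 4.00-fold and 3.58-fold lower than in the low gate. In wild-type cells Gsta4 fell by 1.43, or 2.70-fold, and no other member passed. A gene counted as called at an adjusted p under 0.05 over all 15873 genes, by limma. The share of all genes called was 10.9% between the knockout gates (6.44% lower in the high gate) and 2.44% between the wild-type gates (1.22% lower). Over the 10 members the median log2 difference, high minus low, was -0.32 in the knockout and -0.24 in wild type, while the median over all genes tested was 0.02 and 0.03. Without Gsta3, which passed the filter on low values through samples of the low gate, the medians over the other 9 members were -0.40 and -0.13.

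Gsta4, an alpha class enzyme that conjugates 4-hydroxynonenal, a product of lipid oxidation, read 6.33, 6.56 and 6.32 in Atg7KO-High samples, against 7.84, 7.67, 8.94 and 8.52 in Atg7KO-Low samples. In wild type it read 6.30, 6.18 and 6.50 in WT-High samples, against 8.16, 7.58, 8.29 and 7.01 in WT-Low samples. All 6 samples of the high gate lay within 6.18 to 6.56, below all 8 samples of the low gate, which spread over 7.01 to 8.94. The difference between the gates was -1.84 in the knockout (SE 0.31, limma adjusted p = 0.00275) and -1.43 in wild type (SE 0.31, limma adjusted p = 0.0278). The wild-type call was lost without WT-Low-341 (limma adjusted p = 0.0647), WT-Low-409 (0.0824) or any of the 3 WT-High samples (WT-High-412 at 0.0787, WT-High-388 at 0.0931 and WT-High-411 at 0.126), at differences of -1.52 to -1.26.

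Gstm3, a mu class enzyme, read 6.86, 7.39 and 7.61 in Atg7KO-High samples, against 9.01, 9.06, 9.69 and 9.39 in Atg7KO-Low samples. The knockout gates were well apart, with a gap of more than a log2 unit between the highest high-gate and the lowest low-gate sample, and the difference was -2.00 (SE 0.33, limma adjusted p = 0.00236). In wild type Gstm3 read 7.95, 7.56 and 7.95 in WT-High samples, against 9.50, 8.62, 8.28 and 7.67 in WT-Low samples. Here the gates overlapped, because WT-Low-411 lay below 2 of the high-gate samples, and the difference was -0.70 (SE 0.33, limma adjusted p = 0.343). With array weights it was -0.91 and called (limma adjusted p = 0.0425), and without WT-Low-341 it was -0.37.

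**Figure D1:**
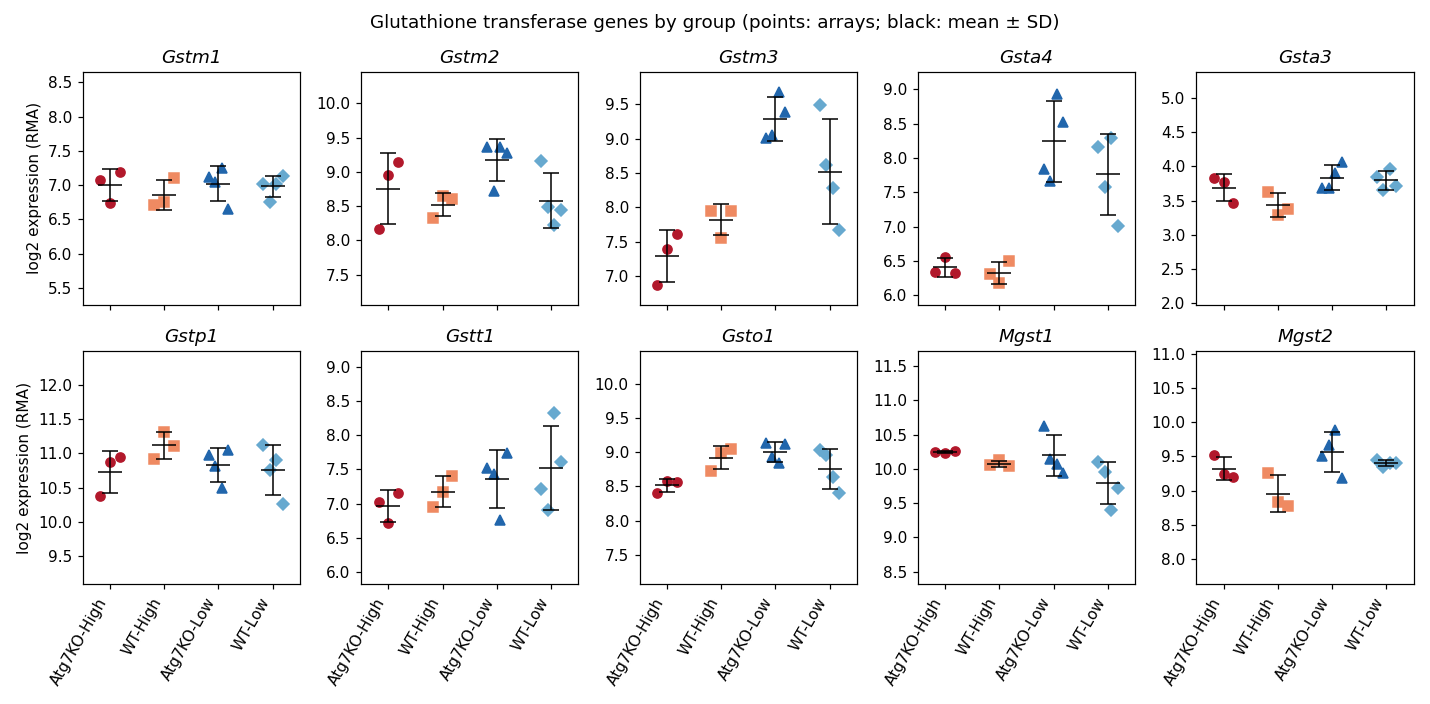
Log2 expression of the 10 glutathione transferase genes (vertical axes, log2 RMA units, each spanning the same number of log2 units) in the 4 groups along the horizontal axis. Points are arrays and black marks the mean ± SD of 3 or 4 arrays, and Gsta4 lies within 6.18 to 6.56 on the 6 high-gate arrays and within 7.01 to 8.94 on the 8 low-gate arrays.

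The neighbours of Gstm3 showed smaller differences between the gates. Gstm2 read 8.16, 8.96 and 9.15 in Atg7KO-High samples, against 9.36, 8.72, 9.36 and 9.27 in Atg7KO-Low samples. Its wild-type values were 8.33, 8.65 and 8.60 in WT-High and 9.16, 8.49, 8.23 and 8.44 in WT-Low samples. The gates overlapped in both genotypes, with differences of -0.42 (95% interval -0.97 to 0.13) in the knockout and -0.06 (-0.61 to 0.49) in wild type. Without Atg7KO-High-356 the knockout difference of Gstm2 was -0.12. Gstm1 stayed within 6.65 and 7.25 over all 14 arrays, the narrowest range of the 10 genes at 0.60, with differences of -0.02 (95% interval -0.39 to 0.35) in the knockout and -0.13 (-0.50 to 0.25) in wild type.

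Gsto1, the omega class enzyme that reduces dehydroascorbate, read 8.40, 8.58 and 8.56 in Atg7KO-High samples, against 9.14, 8.92, 8.84 and 9.11 in Atg7KO-Low samples. These groups did not overlap, and the difference of -0.49 (SE 0.16) missed the threshold with a limma adjusted p of 0.0697. It was called without WT-Low-411 (limma adjusted p = 0.0381), and was -0.18 with the array SD as a covariate. In wild type Gsto1 read 8.73, 8.98 and 9.04 in WT-High samples, against 9.03, 8.95, 8.64 and 8.40 in WT-Low samples, overlapping groups with a difference of 0.16 (SE 0.16).

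Mgst2, a membrane-bound enzyme that can make leukotriene C4, read 9.26, 8.83 and 8.77 in WT-High samples, against 9.44, 9.34, 9.41 and 9.41 in WT-Low samples. The groups did not overlap, with a difference of -0.45 (SE 0.17, limma adjusted p = 0.223), which with array weights was -0.53 and called (limma adjusted p = 0.0378). In the knockout Mgst2 differed by -0.24 (SE 0.17) between overlapping gates, at 9.51, 9.25 and 9.20 in Atg7KO-High and 9.51, 9.67, 9.88 and 9.19 in Atg7KO-Low samples. Gsta3, an alpha class enzyme known in the mouse for conjugating the aflatoxin epoxide, was at 3.29 to 4.07 over all arrays. It reached the level set for testing, the 40th percentile of an array (3.75 to 3.98), on 4 of the 14 arrays, 2 of Atg7KO-Low and 2 of WT-Low, so it was tested only because of the low gate and its values lie near the floor of the arrays. Its differences between the gates, -0.15 (SE 0.15) in the knockout and -0.36 (SE 0.15, limma adjusted p = 0.278) in wild type, are given as values only.

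Among the 9 members other than Gsta3, the groups did not overlap for 3 between the knockout gates (Gstm3, Gsta4 and Gsto1) and for 2 between the wild-type gates (Gsta4 and Mgst2), all lower in the high gate. Over all genes this held in either direction for 22.6% and 16.5%, and for lower values for 11.8% and 6.52%. Gstp1, the pi class enzyme, differed between the gates by -0.11 (95% interval -0.56 to 0.35) in the knockout and by 0.36 (-0.10 to 0.82) in wild type. Gstt1, the theta class enzyme, had differences of -0.40 (95% interval -1.02 to 0.23) and -0.34 (-0.97 to 0.28), and without WT-Low-409 the wild-type value of Gstt1 was -0.073. For Mgst1, which is found on endoplasmic reticulum and mitochondrial membranes, they were 0.05 (95% interval -0.34 to 0.44) and 0.28 (-0.11 to 0.67).

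**Figure D2:**
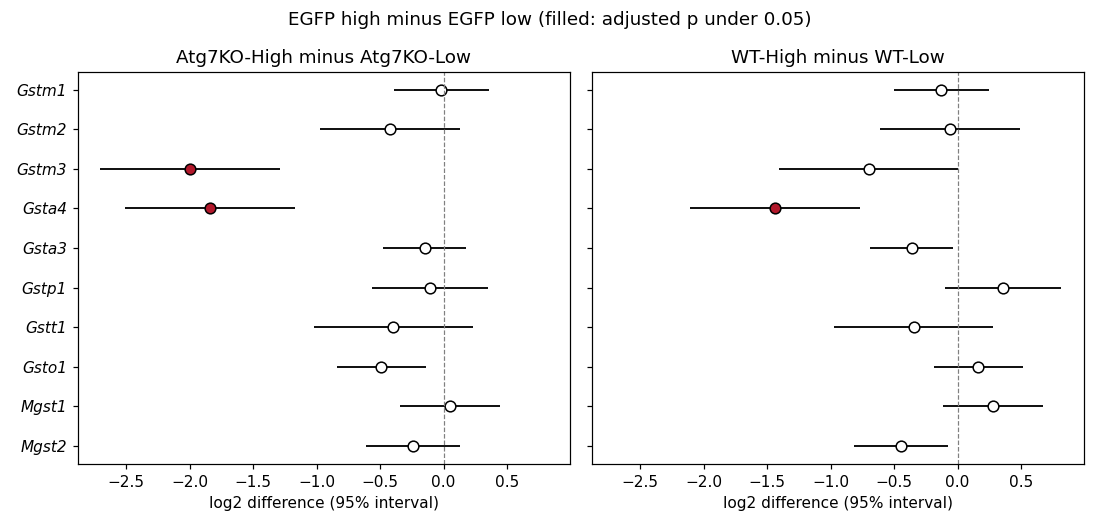
Log2 difference between the gates, EGFP high minus EGFP low (horizontal axis), for the 10 genes, in the knockout on the left and wild type on the right. Points are limma estimates, lines are 95% intervals and filled points passed an adjusted p under 0.05, which are Gstm3 and Gsta4 in the knockout and Gsta4 in wild type.

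Markers of other crypt cells moved with the gates. Over all genes 6.44% were called lower in the high gate of the knockout and 1.22% in that of wild type. Goblet cell markers were called lower there for 10 and 7 of 10 genes, enteroendocrine markers for 7 and 5, and Paneth markers for 5 and 1. Called or not, all 10 goblet and all 10 enteroendocrine markers were below 0 in both genotypes, and 9 and 10 of 10 Paneth markers. Of 14 tested enterocyte markers, 7 were called lower in the knockout and 1 in wild type. Below 0 were 13 and 11 of these enterocyte markers, with medians of -1.02 and -0.43. Their mean log2 level was 7.65 to 7.85 in Atg7KO-High, against 8.35 to 9.74 in Atg7KO-Low, and 7.79 to 9.06 in WT-High, against 8.70 to 9.29 in WT-Low samples. Mean Paneth levels were 8.20 to 9.41, against 9.30 to 10.2, in the knockout gates and 9.26 to 9.98, against 9.97 to 10.8, in the wild-type gates. The mean levels of the tuft, leukocyte and stromal lists lay between 3.85 and 4.78 on all arrays. The tuft genes Trpm5 (0.58) and Avil (-0.68) changed between the knockout gates. The stromal marker Vim stood above its list, at 6.20 ± 0.50 in Atg7KO-High, against 7.10 ± 0.87 in Atg7KO-Low samples, and at 5.92 ± 0.32 in WT-High, against 7.60 ± 0.85 in WT-Low samples. Its differences of -0.90 in the knockout (limma adjusted p = 0.235) and -1.68 in wild type (limma adjusted p = 0.0765, no overlap) missed the threshold, and Vim is named after its values were seen. Of 15 Lgr5 stem cell markers, 13 were called higher in the high gate of the knockout and 14 in that of wild type. All 15 were above 0 in both genotypes, and 711 and 193 of 15873 genes were called higher. The part of enterocytes and of the other cell types in the differences between gates was not tested.

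**Figure D3:**
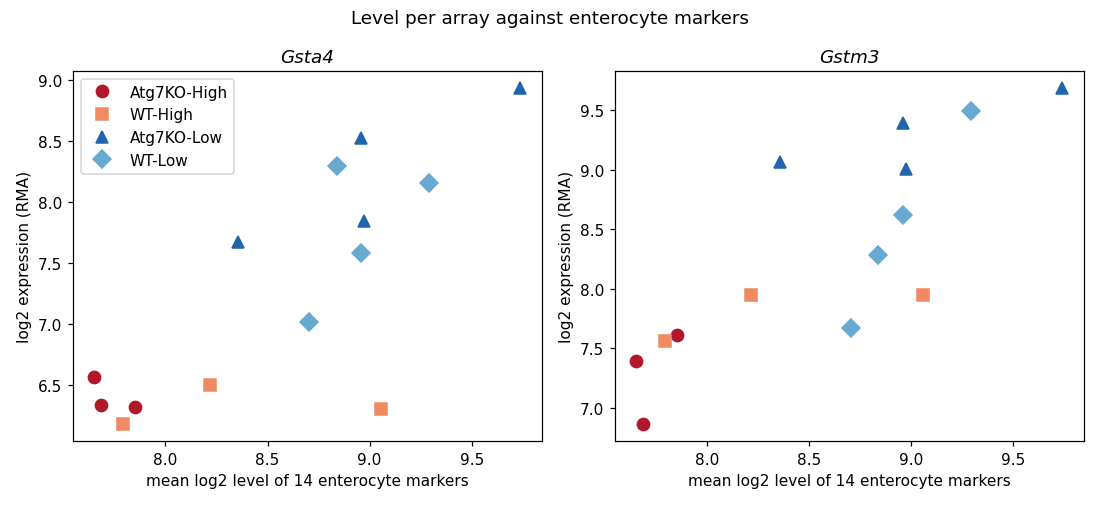
Log2 level of Gsta4 (left) and Gstm3 (right) on each array (vertical axes) against the mean log2 level of 14 enterocyte markers on the same array (horizontal axes), with a symbol per group. Enterocyte means span 7.65 to 7.85 in Atg7KO-High and 8.35 to 9.74 in Atg7KO-Low, and 7.79 to 9.06 in WT-High and 8.70 to 9.29 in WT-Low arrays.

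Between knockout and wild type, none of the 10 genes passed the threshold in either gate. In the stem cell gate 0 of 10 were called, where 0.0126% of all genes were. At an unadjusted p under 0.05 there was 1 member, Gsto1, against 15.9% of all genes, and 10 members are too few to tell such shares apart. Their median log2 difference, knockout minus wild type, was 0.11, and that of all genes was -0.03. In the progenitor gate 0 of 10 were called against 0.0063% of all genes, and 3 had an unadjusted p under 0.05, namely Gstm2, Gstm3 and Mgst1, all higher in the knockout, against 7.26% of all genes (3.86% higher). Here the median was 0.21 over the members and 0.00 over all genes. Above 0 were 9 of 10 members, beside 50.3% of all genes. Related lists leaned the same way, with 13 of 16 other transferases and relatives above 0 (median 0.32). So did 12 of 16 genes of glutathione synthesis and recycling (median 0.22) and 12 of 18 glutathione-using enzymes and export pumps (median 0.08). In the same comparison 10 of 10 Paneth markers were below 0 (median -0.40, 0 called and 2 at an unadjusted p under 0.05). Goblet markers were below 0 for 9 of 10 genes (median -0.16), and enterocyte markers above 0 for 10 of 14 (median 0.04). The part of these cell types in the members' values was not tested.

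In the progenitor gate the higher mu class values stood on overlapping samples. Gstm3 differed by 0.77 (SE 0.31, 95% interval 0.11 to 1.42, limma adjusted p = 0.657), with a mean of 9.29 ± 0.32 in Atg7KO-Low and 8.52 ± 0.76 in WT-Low samples (SD, n = 4 each). The highest wild-type sample, WT-Low-341 at 9.50, lay above 3 of the 4 knockout samples, and without WT-Low-411 the difference was 0.49. Gstm2 differed by 0.60 (SE 0.24, 95% interval 0.09 to 1.11, limma adjusted p = 0.657), with means of 9.18 ± 0.30 and 8.58 ± 0.40 (SD, n = 4 each). Atg7KO-Low-353 was the sample of the knockout group that lay among the wild-type values.

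Mgst1, a membrane enzyme with transferase and peroxidase activity, read 10.63, 10.14, 10.06 and 9.95 in Atg7KO-Low samples, against 10.10, 9.95, 9.40 and 9.73 in WT-Low samples. The difference was 0.40 (SE 0.17, limma adjusted p = 0.665), and 2 knockout samples lay within the wild-type range. Without Atg7KO-Low-356 the Mgst1 difference was 0.26. In the stem cell gate Mgst1 read 10.24, 10.23 and 10.26 in Atg7KO-High samples, against 10.05, 10.12 and 10.04 in WT-High samples. Its groups did not overlap there, at a difference of 0.17 (SE 0.20, limma adjusted p = 0.690). The SD of Mgst1 was 0.018 in Atg7KO-High and 0.045 in WT-High samples, and 0.24 within the 4 groups together. Gsta4 in the progenitor gate differed by 0.48 (95% interval -0.14 to 1.10), and its groups overlapped. Without WT-Low-411 this Gsta4 difference was 0.23, and without Atg7KO-Low-387 it was 0.25.

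In the stem cell gate Gsto1 was lower in each of the 3 knockout samples than in any wild-type sample, at 8.51 ± 0.10 in Atg7KO-High and 8.92 ± 0.17 in WT-High samples (SD, n = 3 each). The difference was -0.40 (SE 0.18, limma adjusted p = 0.290), and -0.02 with the array SD, narrower on the Atg7KO-High arrays, as a covariate. The array SDs of these 2 groups do not overlap. In this gate the covariate and the genotype can therefore not be fully told apart, for Gsto1 or any other gene. The groups did not overlap for 2 of 10 members, Gsto1 (lower) and Mgst1 (higher), against 25.3% of all genes. In the progenitor gate this held for 0 of 10 members and 3.4% of all genes. Gstm3 differed by -0.53 (SE 0.35) in the stem cell gate, which turned to 0.02 when the array SD was a covariate and was -0.32 without Atg7KO-High-356. Its neighbour Gstm2 differed there by 0.23 (95% interval -0.35 to 0.82), and by 0.039 to 0.53 when each sample was left out. In the same comparison 14 of 14 enterocyte markers were below 0 (median -0.55, 0 called and 4 at an unadjusted p under 0.05), and so were 9 of 10 Paneth markers (median -0.54, 0 called and 4 at an unadjusted p under 0.05). Goblet markers were below 0 for 10 of 10 genes (median -1.015, 0 called and 6 at an unadjusted p under 0.05). Mean goblet marker levels were 7.84 to 9.71 in Atg7KO-High and 9.41 to 9.95 in WT-High samples. The part of these cell types in the Gsto1 and Gstm3 values was not tested.

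The remaining members gave intervals that include 0 in both gates. In the stem cell gate Gstp1 read 10.37, 10.87 and 10.94 in Atg7KO-High samples, against 10.91, 11.32 and 11.11 in WT-High samples, with a difference of -0.39 (95% interval -0.88 to 0.10). When the array SD was a covariate, Gstp1 differed by 0.15, and without Atg7KO-High-356 by -0.21. In the progenitor gate Gstp1 differed by 0.08 (-0.35 to 0.50), a direction that flipped with quantile normalization again (-0.01) and with cyclic loess (-0.05). Mgst2 differed by 0.36 (-0.03 to 0.76) in the stem cell and 0.16 (-0.18 to 0.51) in the progenitor gate. Gstt1 had -0.21 (-0.87 to 0.46) and -0.15 (-0.73 to 0.43), with WT-Low-409 at 8.32 as its highest sample and the other WT-Low samples at 6.91 to 7.61. Gsta4 had 0.08 (-0.64 to 0.79) in the stem cell gate, and Gstm1 had 0.15 (-0.25 to 0.55) and 0.04 (-0.31 to 0.38) in the stem cell and progenitor gates. Gsta3 had 0.25 (-0.10 to 0.60) and 0.04 (-0.26 to 0.34).

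**Figure D4:**
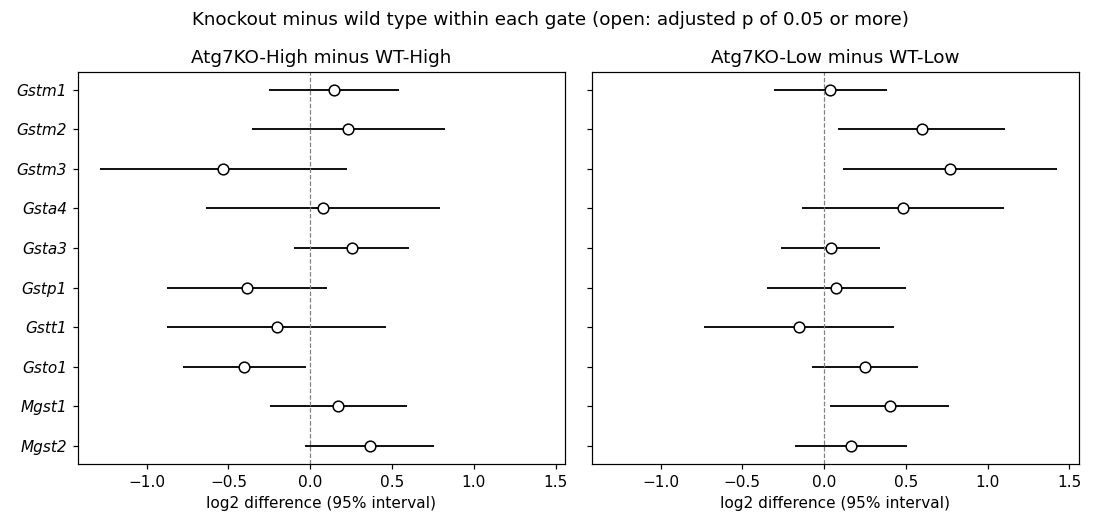
Log2 difference of knockout minus wild type (horizontal axis) for the 10 genes in the EGFP high gate on the left and the EGFP low gate on the right. Points are limma estimates and lines 95% intervals, and all points are open because 0 of 10 passed an adjusted p under 0.05 in either gate.

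Whether knockout effects differed between gates was tested directly, as the effect in the high gate minus that in the low gate. No member passed (0 of 10, against 0.0063% of all genes), and Gstm3 and Gsto1 had an unadjusted p under 0.05, 2 of 10 against 14% of all genes. Gstm3 had the largest value among the members, -1.30 (SE 0.47, limma adjusted p = 0.274), with a knockout effect of -0.53 in the high and 0.77 in the low gate. For Gsto1 the value was -0.65 (SE 0.23, limma adjusted p = 0.272), with effects of -0.40 and 0.25. Adding the array SD to the fit gave -0.64 for Gstm3 and -0.20 for Gsto1. In the high gate that covariate and the genotype cannot be fully told apart.

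Once group means were subtracted, the members differed in how they varied over the 14 arrays. Over the 45 pairs of members the Pearson correlation of these deviations ran from -0.59 (Gstp1 with Mgst2) to 0.81 (Gstp1 with Gsto1), with a median of 0.07. Gstm2 and Gstm3 had 0.68 and Gstm3 and Gsta4 had 0.65. These are descriptions over arrays that share their normalization. The spread within groups was largest for Gstm3 (SD 0.49), Gsta4 (0.47) and Gstt1 (0.43) and smallest for Gsta3 (0.17).

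The wider glutathione system was read from 4 lists with 77 genes, of which 62 were tested. Between knockout and wild type, limma called 0 of these 62 genes in either gate, and 0 for the difference between gates. In the high gate 8 had an unadjusted p under 0.05, all lower in the knockout. There 15.9% of all genes had one, with 1569 of 15873 lower. In the low gate 7 had one, 1 lower and the others higher, beside 7.26% of all genes. For the difference between gates 13 had one, all below 0, beside 14% of all genes, with 1347 of 15873 below 0. Between the knockout gates 13 were called lower in the high gate and 0 higher, beside 10.9% of all genes. Between the wild-type gates 1 was called higher and 1 lower, beside 2.44%.

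Among 16 tested relatives of the 10 genes, 3 were called lower in the knockout's high gate. Gstk1, the kappa class enzyme of mitochondria and peroxisomes, had 4.92 ± 0.33 in Atg7KO-High, against 6.99 ± 0.36 in Atg7KO-Low samples, a difference of -2.07 (SE 0.28, limma adjusted p = 0.000657). The pi class gene Gstp3 differed by -1.49 (SE 0.32) and Mgst3, a microsomal relative, by -0.72 (SE 0.19). In wild type Gstk1 differed by -1.08 (SE 0.28) and missed the threshold with a limma adjusted p of 0.0544. For knockout against wild type in the high gate, Gstk1 had the smallest p of these relatives, at -0.59 (SE 0.30, limma adjusted p = 0.342). Gstm5 was the relative called higher in the high gate of wild type. It had 8.93 ± 0.20 in WT-High, against 8.03 ± 0.33 in WT-Low samples (difference 0.90, SE 0.19, limma adjusted p = 0.0259). Gstm5 also had the smallest p of this list for knockout against wild type in the low gate, at 0.74 (SE 0.18, limma adjusted p = 0.461), and for the difference between gates, at -0.86 (SE 0.28, limma adjusted p = 0.252).

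Of 16 tested genes of glutathione synthesis and recycling, 3 fell in the knockout's high gate and 13 did not pass. Lap3, an aminopeptidase that can split the dipeptide left from glutathione, differed by -1.06 (SE 0.24). Slc3a2, a heavy chain of amino acid transporters that include the cystine importer, differed by -0.93 (SE 0.24). Slc7a11, the light chain of that importer, had means of 2.85 in Atg7KO-High and 2.88 in Atg7KO-Low samples, too low to be tested. Pgd, a source of NADPH, differed by -0.93 (SE 0.29), at a limma adjusted p of 0.05 after rounding. Gclm, the modifier subunit of the enzyme that starts glutathione synthesis, had 6.28 ± 0.19 in Atg7KO-High and 6.90 ± 0.06 in WT-High samples (difference -0.62, SE 0.27, limma adjusted p = 0.278), and is named after its values were seen. In wild type limma called 0 of the 16 genes between the gates, 0 with an unadjusted p under 0.05, and the smallest p was that of Gss, glutathione synthetase, at 0.37 (limma adjusted p = 0.36). For knockout against wild type, Lap3 came nearest in the high gate, at -1.04 (SE 0.26, limma adjusted p = 0.133), and Slc3a2 in the low gate, at 0.55 (SE 0.22, limma adjusted p = 0.657). Lap3 also had the smallest p of its list for the difference between gates, at -1.16 (SE 0.34, limma adjusted p = 0.226).

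Of 18 tested enzymes that use glutathione and pumps that export conjugates, 4 fell in the knockout's high gate and 0 passed in wild type, where 4 had an unadjusted p under 0.05, beside 14.8% of all genes. Abcg2, an efflux pump of the apical membrane, had 6.10 ± 0.07 in Atg7KO-High, against 7.51 ± 0.08 in Atg7KO-Low samples, a difference of -1.41 (SE 0.17, limma adjusted p = 0.000355). In wild type Abcg2 differed by -0.62 (SE 0.17, limma adjusted p = 0.0689). The extracellular glutathione peroxidase Gpx3 differed by -1.35 (SE 0.38) between the knockout gates, the mitochondrial glutaredoxin Glrx5 by -0.76 (SE 0.19) and Glo1, which clears methylglyoxal with glutathione, by -0.56 (SE 0.15). For knockout against wild type, Abcg2 came nearest in the high gate, at -0.60 (SE 0.18, limma adjusted p = 0.181). Glrx5 did so in the low gate, at 0.68 (SE 0.18, limma adjusted p = 0.476), and for the difference between gates, at -1.22 (SE 0.27, limma adjusted p = 0.176).

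Among 12 tested genes of NRF2, its regulators and further targets, Nqo1 fell in the high gate of both genotypes. Nqo1, a quinone reductase, had 4.95 ± 0.18 in Atg7KO-High, against 6.65 ± 0.23 in Atg7KO-Low samples (difference -1.71, SE 0.19, limma adjusted p = 0.00023). In wild type it had 5.40 ± 0.26 in WT-High, against 6.39 ± 0.28 in WT-Low samples (difference -0.99, SE 0.19, limma adjusted p = 0.0141). Txnrd1, the cytosolic thioredoxin reductase, and Sqstm1 each fell by 0.56 (SE 0.13 each) between the knockout gates and differed by 0.13 and -0.12 between the wild-type gates, where neither was called. For knockout against wild type in the high gate, Txnrd1 differed by -0.66 (SE 0.14, limma adjusted p = 0.131). In the low gate it differed by 0.03, and the difference between these effects was -0.69 (SE 0.19, limma adjusted p = 0.226). In the high gate 4 of the 12 genes had an unadjusted p under 0.05, all lower, beside 15.9% of all genes, and 3 of the 12 were above 0. Besides Txnrd1 these 4 were Nqo1 (-0.46), Nfe2l2 (-0.43) and Sqstm1 (-0.38), at limma adjusted p of 0.295, 0.291 and 0.236. These 3 are named after their values were seen. In the low gate the smallest p of this list was that of Ephx1, an epoxide hydrolase, at -0.40 (limma adjusted p = 0.779).

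**Figure D5:**
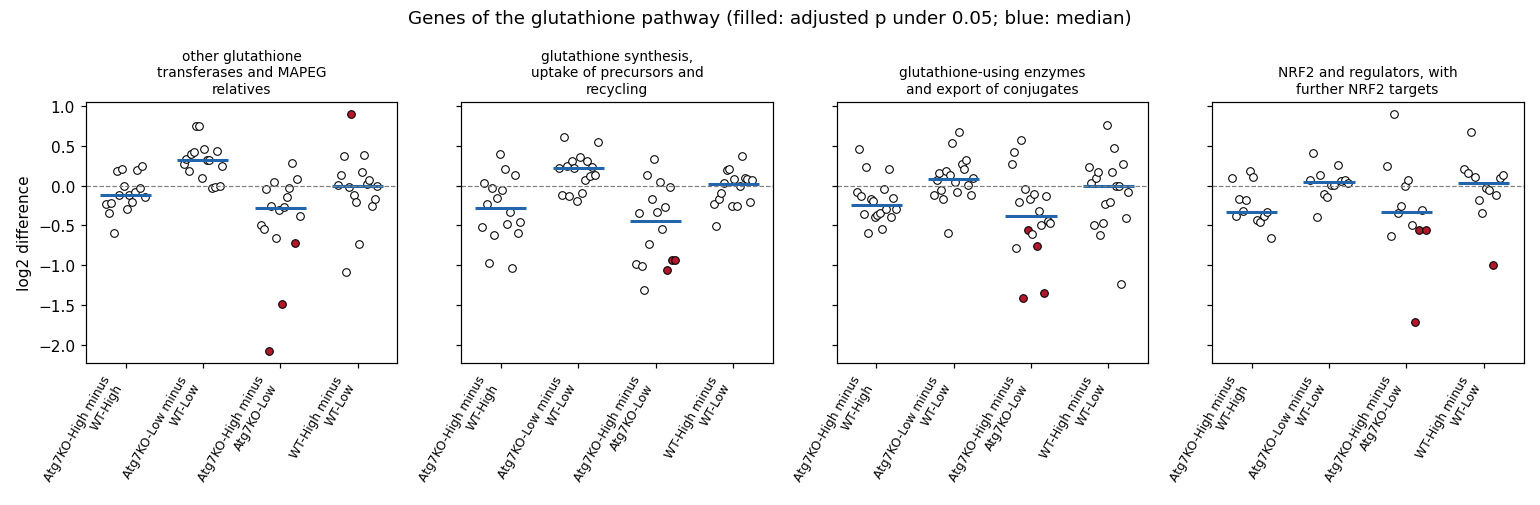
Log2 differences (vertical axis) of the tested genes of 4 glutathione lists in 4 comparisons (horizontal axis), with 1 point per gene. Filled points passed an adjusted p under 0.05 and blue lines are medians, and the 13 filled points between the knockout gates all lie below 0.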

How the data were processed

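The authors deposited 1 log2 value for each probe set on each array. Expression Console and RMA are the tools named, per the submitters' processing notes. RMA corrects background, normalizes between arrays and summarises probes, and can narrow large differences. Their versions, the genome build and the probe grouping are not given. Arrays give no read depth, and their number limits the precision. The labels give 1 ng of total RNA for every sample, and the effect of this amount on the values was not tested. The 754 of 25429 probe sets without a symbol were not used. A gene was tested if it reached an array's 40th percentile on 3 or more arrays. Group means were fitted over 14 arrays with limma 3.58.1 in R 4.3.3 (lmFit, eBayes; 10 residual and 4.54 prior degrees of freedom), with 5 contrasts, two-sided p-values and Benjamini-Hochberg adjustment over all genes tested. The fit was tested on simulated data. The members, gene lists and alternatives were chosen with earlier results of these data known. All members are named, and per pathway list and comparison up to 4 called genes by smallest p, or the gene of smallest p where none was called. Alternatives covered the filter, prior, weights, normalization, covariates, title number and samples.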

Additional observations from a re-analysis of the deposited data

Results flagged for a closer look

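Gstm2 in Atg7KO-Low-353 stood apart from the other samples of its group, at a log2 level of 8.72 against 9.27 to 9.36 in the other 3 Atg7KO-Low samples. Its gap to the nearest sample was 0.869 of the group's range, above Dixon's 95% critical value for 4 samples. The 10 genes were examined in the 2 groups of 4 samples, 20 sets in all, of which 1 was beyond its critical value, and chance gives about 1 in 20.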

How the results depend on the processing

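The number of members called was 0 for knockout against wild type in either gate and for the difference between gates under each of the alternatives run, and 2 between the knockout gates under each alternative, with a range of 2 to 3 when each sample was left out. Between the wild-type gates it was 1, and 3 with array weights (Gsta4, Gstm3 and Mgst2), with a range of 0 to 1 when each sample was left out. In 3 cases a title number occurs in both gates. Deviations of such samples correlated at 0.11, 0.18 and -0.04, which cannot tell whether they share a mouse. The numbers were not taken to pair samples because the labels do not say that they name a mouse. With the title number as a replicate block the counts of members called were 0, 0, 1, 2 and 0, as without it, and the genes called over the table were 1965 in place of 1734 between the knockout gates.

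Over all genes, array weights gave 703 calls in place of 2 for knockout against wild type in the high gate and 7.57% of genes in place of 2.44% between the wild-type gates. Between the knockout gates 495 in place of 1734 were called with the array SD as a covariate, 1027 with only those groups in the fit and 1110 without the 2 arrays of narrowest spread. Leaving out each sample gave 1 to 43, 0 to 2, 103 to 442, 781 to 2128 and 1 to 4 calls for the high gate, the low gate, the wild-type gates, the knockout gates and the difference between gates. With only the groups compared, 5 were called in the high and 0 in the low gate. Gsta3 was not tested under the strict filter. The array SD was lower on each Atg7KO-High array than on any WT-High or Atg7KO-Low array. As a covariate it can therefore not be fully told apart from these group differences. The cause of these shifts was not tested.

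Of the 50 differences of a member in a comparison, 32 kept their sign under every alternative run, and 0 of those that changed sign had been called. For knockout against wild type in the high gate, Gsta4 was -0.026 with median centring, and Gstm3 and Gstp1 were 0.015 and 0.15 with the array SD as a covariate. In the low gate Gstp1 was -0.019 with array weights, -0.013 with quantile normalization again, -0.047 with cyclic loess, -0.033 with the array SD as a covariate and -0.092 without the 2 narrowest arrays, and Gstt1 was 0.022 with array weights. Between the wild-type gates Gstm1 was 0.012 with array weights. Between the knockout gates Gstm1 was 0.11 with quantile normalization again and 0.083 with cyclic loess, and Mgst1 was -0.051 with median centring. There Gstp1 was 0.12 with cyclic loess, 0.34 with the array SD as a covariate and 0.073 without the 2 narrowest arrays. For the difference between gates Gstm1 was -0.060 with array weights, -0.014 with median centring and -0.031 with the array SD as a covariate, Gstt1 was 0.15 with quantile normalization again and 0.18 with cyclic loess, and Mgst1 was 0.070 with cyclic loess. With the array SD as a covariate Gstm2 was 0.0053, Gstp1 was 0.18 and Mgst2 was -0.10.

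Leaving out each sample gave ranges that cross 0 for Gsta4 in the high gate (-0.0011 to 0.16), and in the low gate for Gstm1 (-0.040 to 0.16), Gstt1 (-0.35 to 0.12), Gsta3 (-0.037 to 0.10) and Gstp1 (-0.092 to 0.20). They also do for Gstm2 between the wild-type gates (-0.17 to 0.14), and between the knockout gates for Gstm1 (-0.14 to 0.11), Mgst1 (-0.034 to 0.19) and Gstp1 (-0.22 to 0.073). For the difference between gates they do for Gstm1 (-0.012 to 0.24) and Gstt1 (-0.32 to 0.15).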

Other observations

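The 5 genes outside the family whose deviations from group means were most like those of the mean of Gstm1, Gstm2 and Gstm3 were Map2k2, 4930562F07Rik, Ms4a18, Macc1 and Alcam. Their Pearson correlations over the 14 arrays were 0.94, 0.91, 0.89, 0.88 and 0.88, with Spearman values of 0.89, 0.92, 0.90, 0.88 and 0.85. They were picked as the highest of all genes tested on arrays that share their normalization, so the values are a description. Without WT-Low-341 and Atg7KO-High-386, the 2 arrays farthest from the median, the Pearson values were 0.86, 0.84, 0.84, 0.80 and 0.86. Deviations of Gstm1 correlated at 0.05 with those of Gstm2 and at -0.05 with those of Gstm3. The mean used here is therefore not a profile that these mu class genes share.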
